A study of Mus musculus with 45 samples.

Results

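Non-GC B cells and non-TFH CD4+ T cells are the lymphocytes of the draining lymph node (dLN) that had not taken on the germinal center (GC) phenotype, and WT samples of both were compared here. The comparison used all 5 non-GC B samples and all 6 non-TFH samples from WT mice, 11 of the 45 RNA-seq samples of the series. The mice were S1pr4 +/+ littermates of S1PR4-/- animals (strain B6.129P2-S1pr4tm1Dgen/J, backcrossed to C57BL/6), male and female and 8 to 12 weeks old. Each received 20 µl of an incomplete Freund's adjuvant (IFA) emulsion with 50 µg ovalbumin (OVA) and 5 µg lipopolysaccharide (LPS) in the footpad, and the popliteal dLN were taken. The B cells came from day 9, gated as B220+ cells without GL7 and Fas, and the T cells from day 6, gated as TCRβ+ CD4+ cells without PD1 and CXCR5. Lineage, sort gate and day change together in this design, so their parts in a difference cannot be told apart. Both populations came from immunized nodes, and neither gate separates naive from activated cells or removes regulatory T cells. S1PR4-/- samples of the same populations (4 non-GC B, 6 non-TFH) and WT GC B and TFH samples (6 of each) were used to see which differences recurred.

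B and CD4 T cells descend from a common lymphoid progenitor and use antigen receptors of the same general design. A clonotypic chain (immunoglobulin or T cell receptor) pairs with invariant signaling chains (CD79 or CD3 and CD247), SRC family kinases phosphorylate these, a tandem SH2 kinase binds, and an adaptor brings in a TEC kinase and a phospholipase C gamma. B cells take up antigen and present its peptides on MHC class II, and CD4 T cells recognize them and give help through CD40L, cytokines and costimulatory contacts. Outside the GC both lineages are mostly resting cells that recirculate between blood and lymph by means of chemokine and sphingosine-1-phosphate (S1P) receptors.

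The deposited values were expected counts per gene, and the 11 libraries held 27924916 to 39258003 counts each. Levels are given as CPM, counts scaled to a common size of the normalized library, with means ± SD over 5 non-GC B and 6 non-TFH samples. A gene was called different at an adjusted p (Benjamini-Hochberg) under 0.05 and a fold change over 1.5 in edgeR's quasi-likelihood test. Fold changes are log2 values of non-GC B over non-TFH, so positive values are higher in B cells. S1pr4 itself was counted 2726 to 6305 times in the WT libraries and 1 to 32 times in the S1PR4-/- libraries of the same populations. In bulk samples, fewer cells of a type and less RNA per cell cannot be told apart. The samples are not said to come from separate mice in the labels, so p-values measure the spread between these samples.

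The lineage labels held against their markers. The 12 B cell markers summed to 16715 to 17707 CPM in non-GC B libraries and 14.4 to 52.1 CPM in non-TFH libraries. In T cells each of them stood at 0.0869% to 0.331% (median 0.126%) of its B cell level. The 12 CD4 T cell markers summed to 11094 to 13078 CPM in non-TFH libraries and 87.8 to 136 CPM in non-GC B libraries, at 0.0222% to 4.11% (median 0.0781%) of their T cell level. Most of this sum in B cells was Lck, at 83 to 116 CPM. Cd3e reached at most 0.649 CPM in the same libraries.

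Some libraries stood apart. Non-GC B libraries 4 and 5 held 56.9 and 62.5 CPM of 8 dendritic cell markers, against 6.66 to 7.12 CPM in the other 3. Siglech, a lectin of plasmacytoid dendritic cells, was at 36.5 and 40.4 CPM of the raw total there and at no more than 1.01 CPM in libraries 1 to 3. CD8 T cell markers summed to 43.8 and 24.8 CPM in libraries 4 and 5 against 0.774 to 1.76 CPM, and NK cell markers to 47.0 and 24.1 CPM against 5.11 to 5.81 CPM. Non-GC B library 3 held 806 CPM of plasma cell markers, where the others held 468 to 495 CPM. Among the non-TFH libraries, 4, 5 and 6 held 32.8 to 52.1 CPM of B cell markers and the other 3 held 14.4 to 21.3 CPM. Non-TFH library 4 had the lowest sum of regulatory T cell markers, 387 CPM against 602 to 749 CPM. Some named log2 fold changes are given with and without non-GC B libraries 4 and 5 or non-TFH libraries 4, 5 and 6. They are those where the fold itself, not its log2 value, moved by more than 1.5 times. Both sets of libraries were chosen after seeing the data. The part of such cells in the other results was not tested.

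Of 13669 genes tested, 5311 (38.9%) were called, 2695 higher in non-GC B cells (19.7%) and 2616 higher in non-TFH cells (19.1%). The median log2 fold change of all tested genes was -0.00165. A difference over 4-fold was found for 1163 genes higher in B cells and 1282 higher in T cells, and one over 64-fold for 454 and 478. In 5764 genes (42.2%) the CPM ranges of the 5 and 6 libraries did not overlap. The counts given below for each gene list stand beside these shares, 38.9% called and 42.2% without overlap. The first principal component of the 11 libraries separated B from T libraries and took 83.7% of the variance.

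**Figure D1:**
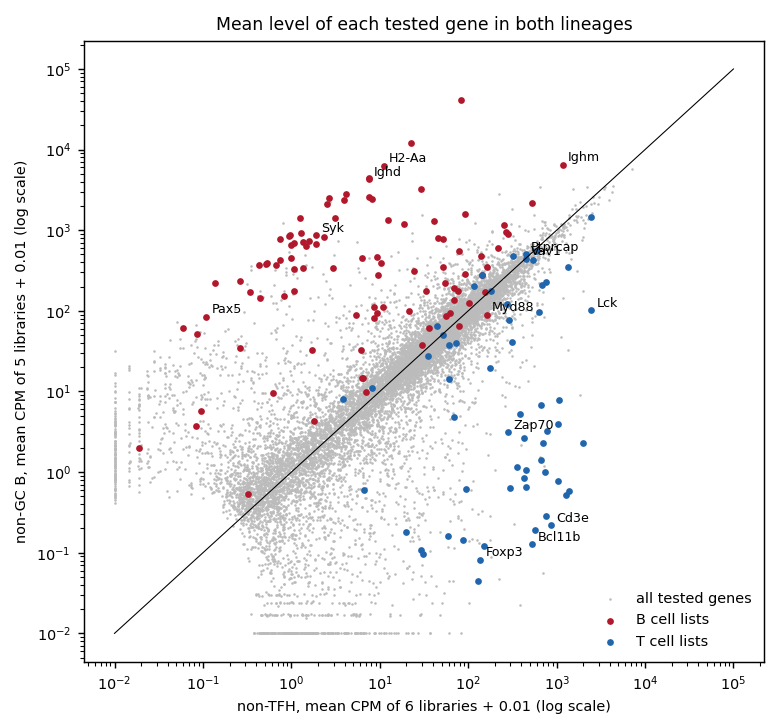
Mean CPM of 13669 tested genes in 6 non-TFH libraries (x axis) and 5 non-GC B libraries (y axis), both plus 0.01 on log scales, with genes of the B cell lists in red and of the T cell lists in blue and the line of equal levels. H2-Aa and Syk lie far above the line, Cd3e and Bcl11b far below it, and Vav1 and Ptprcap close to it.

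The B cell antigen receptor list parted the lineages completely. All 15 members were higher in non-GC B cells and none overlapped, with a median log2 fold change of 8.98. Cd79a encodes a signaling chain of the receptor. It was counted at 2661, 2599, 2813, 3078 and 2953 CPM in the 5 non-GC B libraries and between 0.617 and 8.59 CPM (median 3.66) in the non-TFH libraries (log2 fold change 9.42, standard error 0.61, adjusted p = 1.43e-08, edgeR). Without non-TFH libraries 4, 5 and 6 its log2 fold change was 11.31. Fcer2a, the low-affinity IgE receptor CD23 of follicular B cells, had the largest fold change of the list (1422 against 1.24 CPM, log2 10.15, and 12.999 without the same libraries). It was at 2.33, 3.1 and 1.5 CPM in non-TFH libraries 4, 5 and 6 and at 0.117 to 0.253 CPM in the other 3. Siglecg, an inhibitory lectin, was at 861 against 0.943 CPM (log2 9.82, and 11.93 without the same libraries). The smallest difference was that of the tetraspanin Cd37, at 1167 ± 64.9 CPM in B cells and 253 ± 9.16 CPM in T cells (log2 2.21).

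The T cell receptor list was the mirror image, with 14 of 15 members higher in non-TFH cells and a median of -9.60. Cd3g, a chain of the CD3 complex, was between 668 and 874 CPM (median 745) in T cells and at 0.126, 0.102, 0.359, 0.547 and 0.261 CPM in B cells (log2 fold change -11.39, standard error 0.24, adjusted p = 5.99e-13, edgeR). Cd3d was at 574 ± 55.7 CPM in T cells and at most 0.373 CPM in B cells (log2 -11.64). Trat1, an adaptor that steadies the receptor complex at the surface, was at 129 ± 14.7 CPM against 0.0347 CPM. Cd2, an adhesion receptor, was the called member with the smallest difference and had 30.9% of its T cell level in B cells. Ptprcap, which encodes a protein bound to CD45, was not called, at 503 ± 21.5 CPM in B cells and 448 ± 28.6 CPM in T cells. The sort itself chose on B220, a form of the product of Ptprc, and on TCRβ and CD4, so Trbc1, Trbc2 and Cd4 are no findings. They are nevertheless counted among the 14, and the list median of -9.60 is the value of Trbc1. Ptprc as a gene was at 2185 against 2673 CPM in B and T cells. Cd4 was at 0, 0.813, 0, 7.18 and 8.15 CPM in the 5 non-GC B libraries, and its higher values fell in the 2 libraries with Siglech.

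**Figure D2:**
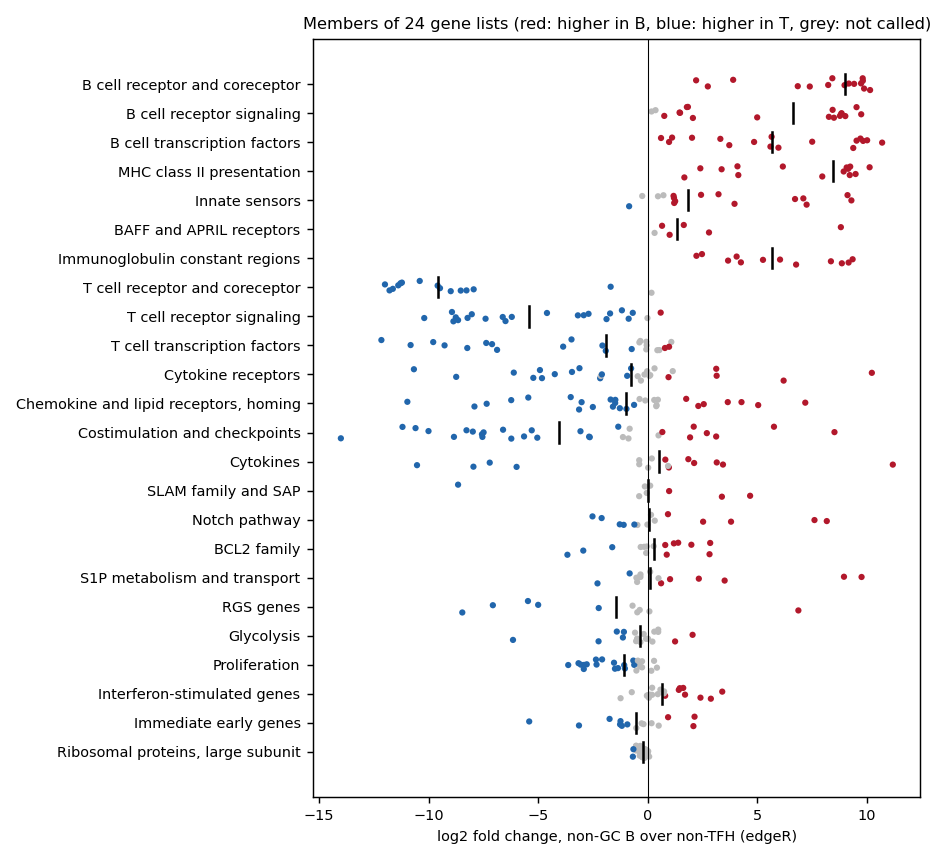
Log2 fold change (non-GC B over non-TFH, edgeR) of each tested member of 24 gene lists, 1 row per list, with called members in red (higher in B) or blue (higher in T), members not called in grey and the list median as a black bar. The medians run from 8.98 for the B cell receptor list to -9.60 for the T cell receptor list, and those of the lists at the bottom lie near 0. The T cell receptor list includes the sort genes Trbc1, Trbc2 and Cd4.

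Downstream of the receptors the lineages used different members of the same protein families. Of 18 B cell receptor signaling genes 16 were higher in B cells and 2 were not called (median 6.63), and of 22 T cell receptor signaling genes 20 were higher in T cells, 1 was higher in B cells and 1 was not called (median -5.41). In 13 pairs of related genes, the B cell member was higher in B cells in all 13 and the T cell member higher in T cells in 11. The pairs were chosen with earlier results of these data known, so these counts describe the pairs and are not a test.

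Syk (ENSMUSG00000021457, mm10 chromosome 13, 52583173 to 52648792) and Zap70 (ENSMUSG00000026117, mm10 chromosome 1, 36761798 to 36782818) encode the tandem SH2 kinases of the B and T cell receptor. Syk was at 856, 766, 1173, 678 and 840.3 CPM in the 5 B cell libraries and between 0.0587 and 4.46 CPM (median 1.82) in T cells (log2 fold change 8.83, standard error 0.54, adjusted p = 6.48e-09, edgeR). Zap70 was at 2.39, 3.86, 3.81, 2.46 and 3.09 CPM in B cells and between 245 and 319 CPM (median 289) in T cells (log2 fold change -6.50, standard error 0.15, adjusted p = 9.01e-13, edgeR). The ranges of the groups were more than an order of magnitude apart for each gene, in opposite directions. The TEC kinases followed the same split, with Btk at 329.7 against 1.07 CPM in B and T cells (log2 8.27, SE 0.25) and Txk, a TEC kinase of T cells, at 5.21 against 384 CPM (log2 -6.21). So did the adaptors, Blnk at 710.0 against 1.36 CPM (log2 9.02) and Lcp2, which encodes SLP-76, at 1.04 against 446 CPM (log2 -8.77). Without non-GC B libraries 4 and 5 the log2 fold change of Lcp2 was -9.45, and without non-TFH libraries 4, 5 and 6 those of Syk and Blnk were 9.67 and 10.33.

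Other pairs differed in degree. Plcg2 was at 816 against 2.34 CPM (log2 8.44, and 9.77 without non-TFH libraries 4, 5 and 6), while Plcg1 kept 41 ± 6.67 CPM in B cells beside 311 ± 48.9 CPM in T cells (log2 -2.92). Of the SRC family kinases, Lyn was at 681 against 1.87 CPM and Blk at 369.9 against 0.424 CPM, and Fyn was at 97.3 against 635 CPM and Lck at 101 against 2468 CPM, so that Fyn and Lck were both measured in every B cell library. The RAS exchange factor Rasgrp3 was at 391 against 0.522 CPM and its relative Rasgrp1 at 229 against 755 CPM (log2 -1.72). The protein kinase C isoform Prkcb was present in both lineages (946 against 266 CPM, log2 1.83), and Prkcq, the isoform of the T cell synapse, was at 0.126, 0, 0.138, 4.61 and 2.23 CPM in the B cell libraries against 674 ± 23.8 CPM in T cells. The values of Prkcq over 1 CPM again fell in libraries 4 and 5, and its log2 fold change of -8.94 became -12.79 without them and -10.21 without library 4 alone. The catalytic PI3 kinase subunits were expressed in both lineages, with Pik3cg at 219.9 against 62.8 CPM (log2 1.81) and Pik3cd at 495 against 829 CPM (log2 -0.74).

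**Figure D3:**
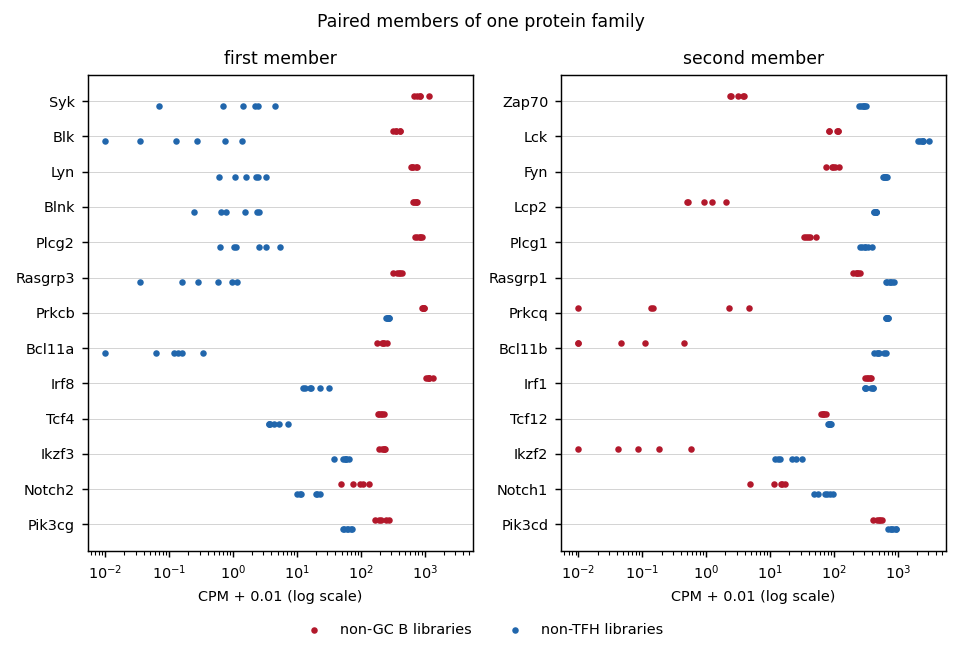
CPM plus 0.01 (log scale) in each non-GC B library (red points) and non-TFH library (blue points) for 13 pairs of genes of one family, with the B cell member on the left and the T cell member on the right. For Syk, Blk and Blnk the red points lie at 325 CPM or more and the blue points at 4.46 CPM or less, for Zap70 and Lcp2 the order is the opposite, and Irf1 and Tcf12 lie together.

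Shared steps lay between these blocks. Vav1, an exchange factor used by both receptors, was at 442 ± 44.1 CPM in B cells and 447 ± 18.3 CPM in T cells (log2 -0.02, adjusted p = 0.863, edgeR). The libraries of the groups overlapped. Nfatc1, a calcium-driven transcription factor listed with the T cell receptor genes, was higher in B cells (477 against 318 CPM, log2 0.59), close to the limit of 1.5-fold and below it under 7 of the alternative fits that did not leave out a library. It was also under the limit without non-GC B library 1, 2 or 3 (log2 0.57, 0.54 and 0.56) and without non-TFH library 4 or 6 (both 0.56).

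The transcription factors showed the same order with more exceptions. All 17 B cell factors were higher in B cells (median 5.65), and of 23 T cell factors 13 were higher in T cells, 2 higher in B cells and 8 not called (median -1.92). Pax5, which holds cells in the B lineage, was at 87.1, 98.3, 78.4, 68.9 and 88.2 CPM in B cells and between 0 and 0.192 CPM (median 0.119) in T cells (log2 fold change 9.71, standard error 0.31, adjusted p = 1e-11, edgeR). Ebf1, another factor of B lineage identity, was at 378 against 0.506 CPM, Mef2c at 768 against 0.732 CPM (log2 10.01) and Hhex at 234 against 0.255 CPM (log2 9.83). Without non-TFH libraries 4, 5 and 6 the log2 fold change of Mef2c was 12.19.

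Bcl11a and Bcl11b are related zinc finger factors of B and T cell development. Bcl11a was at 231, 257, 217, 178 and 219 CPM in B cells and between 0 and 0.327 CPM (median 0.118) in T cells (log2 fold change 10.70, standard error 0.26, adjusted p = 1.27e-12, edgeR), the largest difference on the list. Bcl11b was at 0, 0.102, 0, 0.444 and 0.0372 CPM in B cells and between 420.0 and 657 CPM (median 499) in T cells. The log2 fold change of Bcl11b was -12.16, -13.85 without non-GC B library 4 and -13.91 without libraries 4 and 5. Tcf7, the T cell factor TCF1, was at 2.28 against 1997 CPM (log2 -9.80, and -10.54 without libraries 4 and 5). Foxp3, the factor of regulatory T cells, was at 0.0718 against 137 CPM, and all 6 regulatory T cell markers were higher in T cells.

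The shared factors were many. Klf2, which drives the S1P receptor program of recirculating cells, was at 552 ± 61.1 CPM in B cells and 579 ± 55.6 CPM in T cells (log2 -0.07, adjusted p = 0.514, edgeR). Foxo1 (428 against 542 CPM), Stat4 (175 against 183 CPM) and Runx3 (50.1 against 51.8 CPM) were not called either. Foxo1 was under the fold limit but did not overlap between groups (407 to 457 against 503 to 587 CPM). Bach2 and Id3 were higher in B cells, Bach2 at 280.0 against 143 CPM (log2 0.97) and Id3 at 201 against 117 CPM (log2 0.78). The Irf and E protein pairs of the family comparison did not split. Irf8 was higher in B cells (1178 against 18.9 CPM) while Irf1 was at 346 against 354 CPM, and Tcf4 was higher in B cells (207 against 4.63 CPM) while the E protein Tcf12 was at 68.4 against 84.7 CPM, under the fold limit.

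MHC class II presentation parted the lineages as fully. All 14 members were higher in B cells without overlap (median 8.45), and their CPM summed to 66349 to 81449 in B cell libraries and 509 to 764 in T cell libraries. Ciita, the coactivator that class II promoters depend on, was at 918, 1008, 1066, 849 and 736 CPM in B cells and between 0.354 and 2.65 CPM (median 0.948) in T cells (log2 fold change 9.49, standard error 0.38, adjusted p = 9.62e-11, edgeR). Cd74, the invariant chain, was at 41043 ± 4285 CPM against 83.4 ± 47.9 CPM (log2 8.94). The classical chains lay close together, with H2-Aa at log2 9.15, H2-Ab1 at 9.08 and H2-Eb1 at 9.22. Without non-TFH libraries 4, 5 and 6 these were 9.94, 9.99 and 9.99, with Ciita at 10.50, Cd74 at 9.81, H2-Eb2 at 10.88 and H2-DMb2 at 10.31.

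The peptide loading genes were less uniform. H2-DMb2 was at 2359 against 3.89 CPM (log2 9.24), whereas H2-DMa kept 5.7% and H2-Ob 5.86% of their B cell level in T cells, above the 0.0869% to 0.331% of the B cell markers. H2-Ob was at 1589 ± 48.6 CPM in B cells and 93.1 ± 17 CPM in T cells. The proteases and reductase of the pathway were expressed in both lineages and higher in B cells, Ctss at 899 against 283 CPM, Lgmn at 177 against 33.6 CPM and Ifi30 at 112 against 10.8 CPM.

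The class II promoters are shown because the genes moved together and share letters near the start site. In the 250 bases before the RefSeq start (GRCm38.p6), CTGATTGG, the Y box, was found on either strand in 4 of 11 class II list genes with a promoter sequence (H2-Aa, H2-Eb1, H2-Eb2 and H2-Oa). It was found in 3.83% of 32851 promoter windows of the same length. A list gene counted when any of its windows held the letters, whereas the 32851 windows, of 27025 gene symbols, were counted singly. Counts of genes and shares of windows in this paragraph are thus not in the same unit. Its core ATTGG, which CTGATTGG contains, was in 9 of the 11 and in 33.9% of all windows, and AGCAAC, part of the X box, in 4 of the 11 and 12.2%. The stretches run 5′ to 3′ toward the gene, and capitals mark the Y box or its core and, where present, AGCAAC.
H2-Aa (chr17:34287857-34287916, strand -): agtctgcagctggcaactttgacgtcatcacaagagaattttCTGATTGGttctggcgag
H2-Eb1 (chr17:34305763-34305822, strand +): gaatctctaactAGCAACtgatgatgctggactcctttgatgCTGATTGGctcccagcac
H2-Eb2 (chr17:34325530-34325589, strand +): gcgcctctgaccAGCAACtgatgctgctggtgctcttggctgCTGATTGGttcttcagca
H2-DMb2 (chr17:34145114-34145173, strand +): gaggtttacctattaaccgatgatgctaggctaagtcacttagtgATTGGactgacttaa
H2-Ob (chr17:34238803-34238862, strand +): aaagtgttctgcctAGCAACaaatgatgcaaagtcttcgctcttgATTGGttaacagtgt
The marked core ends 43 to 95 bases before the start in these genes. H2-Aa, H2-Eb1 and H2-Eb2, with the whole Y box, had log2 fold changes of 9.15, 9.22 and 10.13. H2-Oa, also with the whole Y box, has no stretch shown. It was at 447 against 6.22 CPM in B and T cells and kept 1.39% of its B cell level. H2-DMb2 and H2-Ob, with the core alone, had 9.24 and 4.09. H2-DMb2 kept 0.165% of its B cell level in T cells. Of the genes with the core alone and not shown, H2-DMb1 kept 0.398%, H2-DMa 5.7% and Lgmn 18.96%. Levels with the whole box and with the core alone therefore overlapped. A match is a description of letters and not of binding. Over the B cell lists 7 of 73 genes held CTGATTGG, among them the 4 class II genes, and over the T cell lists 1 of 41. ATTGG was in 28 of the 73 and 15 of the 41, and AGCAAC in 12 and 8. GAGGAAGT, a PU.1 type motif, was in 8 of the 73, 2 of the 41, 0 of the 11 class II genes and 2.44% of all windows. The octamer ATTTGCAT was in 3 of the 73, 0 of the 41 and 1.6% of all windows.

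Antigen receptor genes took different shares of the transcriptomes. Immunoglobulin genes took 1.69% ± 0.173 of counts in non-GC B cells and 0.134% ± 0.0191 in non-TFH cells, a difference of 1.56 percentage points (two-sided exact permutation p = 0.00216, the smallest that 462 splits allow, n = 5 and 6). T cell receptor genes took 0.403% ± 0.0419 in T cells and 0.000255% ± 0.000173 in B cells (exact permutation p = 0.00216). Of the 1.69%, constant genes made up 1.53 points and variable genes 0.164 points. All 12 tested genes of the constant region list, Jchain among them, were higher in B cells (median 5.65).

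Ighm and Ighd, the isotypes of mature B cells, did not behave alike. Ighd was at 4143, 4014, 4471, 4736 and 4104 CPM in B cells and between 2.35 and 14.1 CPM (median 7.2) in T cells (log2 9.17, and 10.34 without non-TFH libraries 4, 5 and 6), 0.174% of its B cell level, as the B cell markers were. Ighm was at 6362, 5917, 7536, 6134 and 6540.2 CPM in B cells and between 1062 and 1348 CPM (median 1141) in T cells (log2 fold change 2.47, standard error 0.09, adjusted p = 2.22e-11, edgeR), which is 18% of the B cell level. Every non-TFH library held Ighm at this level, those low in B cell markers included. Immunoglobulin variable genes took 0.00159% of T cell counts, with a range of 0.000265% to 0.00349%. Igkc stood at 0.915% of its B cell level in T cells. The source of the Ighm RNA in the non-TFH libraries was not tested.

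Switched isotypes varied between B cell libraries. Ighg1 was at 168, 489, 1162, 103 and 56.2 CPM and Ighg2b at 222, 214, 925, 97.9 and 95.4 CPM in the 5 libraries. Jchain, which joins IgM and IgA and marks secreting cells, was at 45.3, 82.3, 269, 31.6 and 14.7 CPM. All 3 were highest in library 3, the one with the most plasma cell marker RNA, and lowest in libraries 4 and 5.

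Some contacts for help had one end higher in each lineage. Of 30 tested costimulatory and checkpoint genes 7 were higher in B cells, 19 higher in T cells and 4 not called (median -4.06). Of 15 pairs of ligand and receptor, also chosen with earlier results known, 7 split with one member higher in each lineage. These include H2-Aa with Cd4 and Cd274 with Pdcd1, where CD4 and PD1 were used in the sort. They also include Ccl22 with Ccr4, where Ccl22 was at only 0.779 against 0.178 CPM in B and T cells. Cd40 was at 153, 148, 178, 153 and 135 CPM in B cells and between 0.117 and 0.845 CPM (median 0.352) in T cells (log2 fold change 8.52, standard error 0.24, adjusted p = 4.49e-12, edgeR). Its ligand Cd40lg was at 0, 0.0339, 0.166, 0.342 and 0.0744 CPM in B cells and between 115 and 148 CPM (median 133) in T cells (log2 -10.01, and -10.77 without non-GC B library 4). Neither gene overlapped between groups, and Cd40 had a log2 fold change of 9.32 without non-TFH libraries 4, 5 and 6.

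Icosl was at 496 ± 28.6 CPM in B cells and 9.15 ± 2.27 CPM in T cells (log2 5.76), and its receptor Icos at 0.319 against 144 CPM. Cd86 was at 77.9 against 8.96 CPM (log2 3.12), with its receptors Cd28 at 1.13 against 353 CPM and Ctla4 at 0.237 against 62 CPM, while Cd80 was near 1 CPM in both lineages and not called. Cd72 was higher in B cells (771 against 51.7 CPM, log2 3.90) and its proposed partner Cd5 in T cells (0.827 against 429 CPM). Tnfsf8, the CD30 ligand, had 0 counts in all 5 B cell libraries and between 48 and 72.8 CPM (median 63.2) in T cells, at least 622-fold higher with a floor of 3 counts per library. Cd96 was at 332 ± 32.8 CPM in T cells and Cd226 at 39.4 ± 7.2 CPM, both receptors for nectin family ligands, with B cell means of 0.217 and 0.0137 CPM.

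Several pairs were open at one end. The T cell receptors Cd27, Tnfrsf4 and Tnfrsf9 were at 399, 107 and 46.1 CPM in T cells. Their ligand genes Cd70, Tnfsf4 and Tnfsf9 were at 0, 0.255 and 2.98 CPM in B cells, and Tnfsf4 and Tnfsf9 were not called. Il21r (532 against 506 CPM) and Il4ra (745 against 603 CPM) were shared, while Il21 had 0 counts in B cells and between 0.491 and 1.74 CPM (median 0.716) in T cells, and Il4 did not pass the count filter. Il21 was at least 9.33-fold higher in T cells by the same floor. Tnfrsf13c, the BAFF receptor, was at 726 against 1.59 CPM, and Tnfsf13b, which encodes BAFF, was at no more than 0.506 CPM in any library of either lineage.

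**Figure D4:**
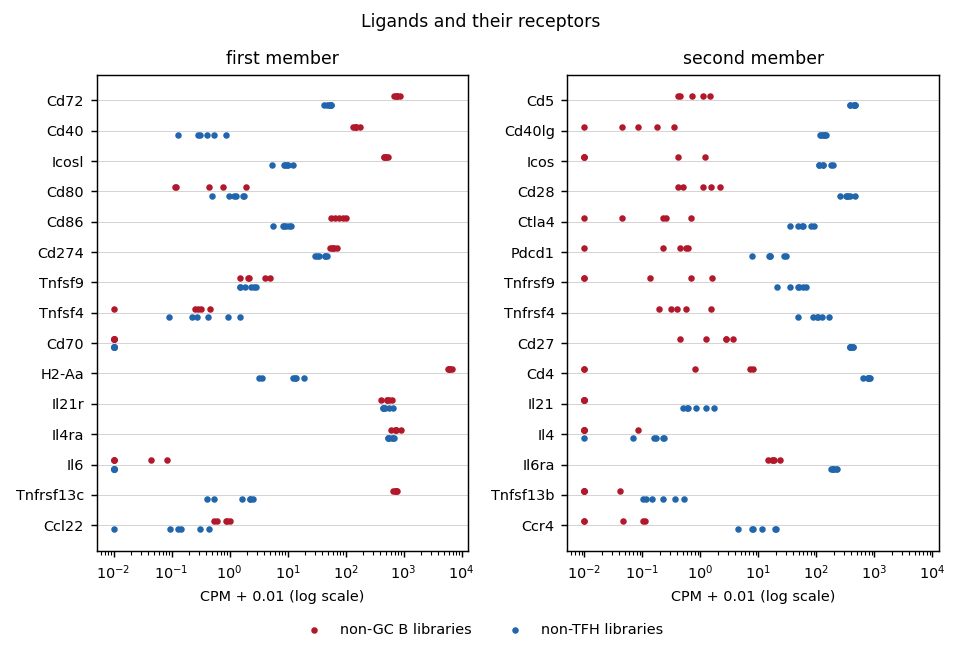
CPM plus 0.01 (log scale) in each non-GC B library (red points) and non-TFH library (blue points) for 15 pairs of ligand and receptor genes. Cd40 and Icosl lie from about 135 CPM upward in B cells with Cd40lg and Icos at 110.2 CPM or more in T cells, Il21r and Il4ra overlap between lineages, and Cd70 is at 0 in all 11 libraries.

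Cytokine receptors were split in both directions. Of 27 tested 5 were higher in B cells, 13 higher in T cells and 9 not called (median -0.76). Il7r, the receptor chain that keeps naive T cells alive, was at 0.408, 0.0339, 1.24, 2.32 and 3.65 CPM in B cells and between 433 and 830.2 CPM (median 632) in T cells (log2 -8.75, and -10.08 without non-GC B libraries 4 and 5). Il2ra was at 2.27 against 84.4 CPM, Il2rb at 8.64 against 259 CPM, Il6ra at 18.3 against 202 CPM and Il6st at 20.3 against 385 CPM. Il10ra (448 against 51.4 CPM, log2 3.12) and Il9r (33.9 against 3.83 CPM, log2 3.14) were higher in B cells. Il5ra was at 44.8, 46.6, 41.7, 47.9 and 34.7 CPM in the B cell libraries and was counted in 1 non-TFH library, at 0.192 CPM. The chains expressed in both lineages included Tgfbr2 (596 against 551 CPM), Ifnar1 (186 against 232 CPM) and Il17ra (447 against 615 CPM), none of them called. Il17ra was under the fold limit but did not overlap between groups (398 to 504 against 579 to 686 CPM).

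Of 28 listed cytokine genes 16 passed the count filter and were tested, 7 of them higher in B cells, 4 higher in T cells and 5 not called (median 0.49). Ltb, which organizes lymphoid tissue, was at 995 against 1306 CPM and not called. Tgfb1 was higher in B cells (125 against 64.1 CPM, log2 0.96), and so were Tgfb3 (16.2 against 1.82 CPM, log2 3.15) and Lta (37.1 against 21.3 CPM). Il12a, a subunit of IL-12 and IL-35, was at 19, 17.6, 26.6, 18.6 and 15 CPM in B cells, with 1 count in the 6 non-TFH libraries together. Il2, Ifng, Il17a and Il4 were under the count filter.

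Of 6 tested genes of BAFF and APRIL signaling 5 were higher in B cells (median 1.32). Tnfrsf13b, which encodes TACI, differed less than the BAFF receptor, at 552 ± 36.7 CPM in B cells and between 72.9 and 83.3 CPM (median 80.8) in T cells (log2 fold change 2.79, standard error 0.06, adjusted p = 9.01e-13, edgeR). It kept 14.4% of the B cell level in T cells. Nfkb2 was at 288 against 92.1 CPM (log2 1.64), and the kinase upstream of it, Map3k14, was at 127 against 102 CPM and under the fold limit.

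Innate sensing genes were mostly on the B cell side, with 12 of 16 tested higher in B cells, 1 higher in T cells and 3 not called (median 1.84). LPS was part of the immunogen. Its receptor Tlr4 was at 40.5, 41.7, 28.5, 30.7 and 32.3 CPM in B cells and between 0 and 0.639 CPM (median 0.144) in T cells (log2 fold change 7.10, standard error 0.55, adjusted p = 9.29e-08, edgeR). Without non-TFH libraries 4, 5 and 6 the log2 fold change of Tlr4 was 6.14. Cd180 and Ly86, which form a related LPS-sensing complex of B cells, were at 51.5 against 0.0766 CPM and 374 against 0.659 CPM. The coreceptor gene Cd14 was at or under 0.558 CPM in every B cell library and was not tested. Myd88, the common adaptor, was the member higher in T cells (90.0 against 162 CPM, log2 -0.85).

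Homing and lipid receptors differed in number and in kind. Of 29 tested 7 were higher in B cells, 16 higher in T cells and 6 not called (median -0.97). Ccr7, which brings both lineages into the node, was at 445 against 1444 CPM (log2 -1.70). Cxcr5, the receptor for the follicle, was at 529.7 against 16.1 CPM, and T cells with CXCR5 had been gated out. Ccr6 (119 against 6.13 CPM, log2 4.28) and the cannabinoid receptor Cnr2 (461 against 36.7 CPM, log2 3.65) were higher in B cells. Ccr4, Cxcr6 and Itgae were higher in T cells, at 11.9, 23.3 and 26.4 CPM, and were under 1 CPM in B cells on average. Gpr183, the oxysterol receptor, was at 392 against 285 CPM and not called.

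The S1P receptors were shared unequally. S1pr1, the egress receptor, was at 530.0 ± 42.3 CPM in B cells and 1284 ± 74.8 CPM in T cells (log2 fold change -1.28, standard error 0.07, adjusted p = 1.96e-09, edgeR). S1pr4 was at 95.5, 94.8, 85.6, 96.9 and 101 CPM in B cells and between 119 and 163 CPM (median 151) in T cells (log2 fold change -0.63, standard error 0.09, adjusted p = 3.1e-05, edgeR), and the groups did not overlap. S1pr3 was at 20.6, 24, 25.2, 18.2 and 9.9 CPM in B cells and at most 0.426 CPM in T cells. S1pr2 was higher in T cells (2.83 against 16.3 CPM, log2 -2.51, and -3.29 without non-GC B library 3). Of 15 tested genes of S1P metabolism and transport 6 were higher in B cells, 2 higher in T cells and 7 not called (median 0.11). The share called over all genes was 38.9%.

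Spns2, an S1P exporter, was at 63.3, 67.5, 63.9, 58.4 and 82.4 CPM in B cells and was counted in 1 non-TFH library, at 0.439 CPM. The lipid phosphatase gene Plpp3 was at 17.8 against 0.0317 CPM. Sgpl1, the S1P lyase, was at 240.2 against 158 CPM (log2 0.61, and under the fold limit when scaled by total counts, at 0.57 without non-GC B library 3 and at 0.56 without non-TFH library 4). Of the ceramide synthases, Cers6 (5.55 against 27.3 CPM, log2 -2.30) and Cers5 (50.8 against 90.3 CPM, log2 -0.83) were higher in T cells, and Cers2 (291 against 270.1 CPM) was not called.

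Receptor families with members in both lineages split gene by gene. In the SLAM family 3 of 8 tested were higher in B cells, 1 higher in T cells and 4 not called (median 0.03). Over all genes 38.9% were called. Slamf7 was at 65.5 against 2.57 CPM (log2 4.67) and Slamf1 at 71.3 against 36.3 CPM (log2 0.97). Ly9 (280.1 against 289.6 CPM), Cd84 (130.1 against 143 CPM) and Cd48 (246 against 228 CPM) were not called, while Sh2d1a, the adaptor SAP of these receptors in T cells, was at 59.8 ± 6.42 CPM in T cells and was counted in 1 B cell library, library 4.

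Notch receptors changed places. Notch2, which directs marginal zone B cells, was at 108, 99, 133, 48.4 and 75 CPM in B cells and between 9.92 and 23.2 CPM (median 15.6) in T cells (log2 fold change 2.52, standard error 0.28, adjusted p = 3.54e-06, edgeR). Notch1, which directs T lineage choice, was at 14.7, 11.5, 15.1, 17.4 and 4.8 CPM in B cells and between 48.7 and 97.7 CPM (median 75.9) in T cells (log2 fold change -2.53, standard error 0.28, adjusted p = 3.84e-06, edgeR). Over the pathway 5 of 14 tested were higher in B cells and 5 in T cells (median 0.06). Hes1, a target, was at 25 against 0.0843 CPM (log2 8.17), Dtx1, another target, was higher in T cells (195 against 475 CPM, log2 -1.28), and the DNA-binding partner Rbpj was shared (65 against 58.7 CPM). The Notch ligand Dll1 was at 14.1, 12.1, 10.1, 30.4 and 18.1 CPM in B cells and at most 0.294 CPM in T cells.

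Of 15 tested BCL2 family genes 7 were higher in B cells, 3 higher in T cells and 5 not called (median 0.27). Bcl2 itself was at 155 against 194 CPM and under the fold limit. Mcl1 was higher in B cells (676 against 371 CPM, log2 0.86) and Bcl2l1, which encodes BCL-XL, in T cells (8.75 against 27 CPM, log2 -1.62). The killer genes split, with Bmf (11.4 against 1.59 CPM), Pmaip1 (14.6 against 2.06 CPM) and Bid (98.8 against 37.8 CPM) higher in B cells and Bbc3, which encodes PUMA, higher in T cells (1.56 against 19.9 CPM, log2 -3.67). Of 10 tested RGS genes, brakes on receptor signals through G proteins, 5 were higher in T cells and 1 in B cells (median -1.47). Rgs10 was at 1.74 against 76.6 CPM (log2 -5.47), Rgs1 at 0.242 against 32.4 CPM, Rgs11 at 0.95 against 31.4 CPM and Rgs18 at 19.9 against 0.166 CPM. Rgs14 (144 against 201 CPM) and Rgs19 (155 against 148 CPM) were not called.

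Ribosomal protein and glycolysis genes were listed as housekeeping programs. Of 45 large subunit ribosomal protein genes 2 were called, Rplp0 (log2 -0.68) and Rplp1 (log2 -0.66), with a median of -0.22. Without non-GC B library 4 Rplp1 was at log2 -0.58, under the fold limit. Ribosomal protein genes took 1.6% ± 0.193 of counts in B cells and 2.15% ± 0.144 in T cells (exact permutation p = 0.00216). Mitochondrial genes took 0.663% ± 0.0954 and 0.566% ± 0.115 (exact permutation p = 0.158). In glycolysis 5 of 19 genes were higher in T cells, 2 higher in B cells and 12 not called (median -0.34), where 38.9% of all genes were called. In 13 of the 19 the groups did not overlap, against 42.2% of all genes. Ldha was at 517 against 1378 CPM (log2 -1.42), Hk1 at 119.6 against 263 CPM (log2 -1.14) and Pkm at 628 against 1338 CPM (log2 -1.09), while Gapdh (534 against 564 CPM) was not called. Eno1 (1331 against 1996 CPM, log2 -0.584) did not overlap between groups and was just under the fold limit. With DESeq2 and several other alternatives Eno1 was called. Ldhb was at 0, 0, 0, 2.22 and 4.24 CPM in the B cell libraries and between 75.1 and 102 CPM (median 84.5) in T cells, with all B cell counts in libraries 4 and 5.

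Cell cycle genes were higher in non-TFH cells, 16 of 25 with 9 not called and a median of -1.08, at low levels. Mki67 was at 2.1, 0.305, 1.38, 2.46 and 0 CPM in B cells and between 4.96 and 22.8 CPM (median 8.69) in T cells (log2 fold change -3.16, standard error 0.72, adjusted p = 0.00197, edgeR). Birc5 was at 1.29 against 10.8 CPM, Rrm2 at 10.0 against 42.6 CPM and Top2a at 7.85 against 22.2 CPM. The replication genes Mcm2 (116 against 148 CPM) and Pcna (74.3 against 102 CPM) were closer and not called. Neither overlapped between groups, with Mcm2 at 97.3 to 124 against 132 to 162 CPM and Pcna at 72.3 to 76.4 against 87.8 to 110.5 CPM. Mcm4 (129 against 198 CPM) and Mcm6 (133 against 211 CPM) differed more. Mcm3 was at 89.3 against 120 CPM, Mcm7 at 91.5 against 131 CPM and Mcm5 at 93.8 against 83.9 CPM. The T cells came from day 6 and the B cells from day 9.

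Interferon-stimulated genes varied within groups. Of 20 tested 8 were higher in B cells and 12 not called, with a median of 0.66. Over all genes 38.9% were called, so the number of calls in this list was near that share. Mx1 was at 6.68, 25.4, 8.32, 44.7 and 21.2 CPM in B cells and between 1.34 and 3.54 CPM (median 1.84) in T cells (log2 fold change 3.40, standard error 0.47, adjusted p = 2.57e-05, edgeR). Non-GC B library 4 was the highest for Mx1, Mx2 and Oasl1, and without libraries 4 and 5 the log2 fold change of Mx1 was 2.73. Without the same libraries 5 of the list were called higher in B cells and 3 higher in T cells, and without library 4 alone 5 and 2.

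Among 15 tested immediate early genes 3 were higher in B cells, 7 higher in T cells and 5 not called (median -0.53). Jun (46.5 against 11 CPM, log2 2.08) and Egr3 (29.9 against 6.82 CPM, log2 2.13) were higher in B cells, and Egr1 (54.4 against 129 CPM, log2 -1.25) and Egr2 (18.3 against 35 CPM, log2 -0.93) in T cells. Junb, Jund, Nr4a1 and Ier2 were not called.

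Ranked by size over all genes at 50 CPM or more in one lineage, the differences reached beyond the receptor machinery. The 15 largest toward B cells included Bcl11a, Scn4a, Scd1, Fcer2a, H2-Eb2, Bcar3, Mef2c, Srpk3, Lrrk2, Hhex, Siglecg, Cr2, Chst3 and Spns2. Scd1, a desaturase of fatty acids, was at 1336, 1289.5, 1063, 1171 and 1299 CPM in B cells and between 0 and 1.77 CPM (median 0.755) in T cells (log2 fold change 10.57, standard error 0.57, adjusted p = 2.01e-09, edgeR), with a log2 fold change of 13.37 without non-TFH libraries 4, 5 and 6. Scn4a, a voltage-gated sodium channel known from muscle, was at 63.5, 78.4, 113, 54.7 and 49.8 CPM and at most 0.192 CPM in T cells. Lrrk2, a kinase linked to Parkinson disease, was at 319 ± 78.2 CPM in B cells and 0.341 CPM in T cells (log2 9.84).

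The 15 largest toward T cells were Als2cl, Camk4, Tnfsf8, Igfbp4, Ephb6, Bcl11b, Cd3e, Trat1, Tdrp, Cd3d, Ndrg2, Cd3g, Vipr1, Mboat1 and Foxp3. Camk4, a calcium-calmodulin kinase, had 0 counts in all 5 B cell libraries and between 78.1 and 91.8 CPM (median 82.1) in T cells, at least 846-fold higher by the floor of 3 counts per library. Als2cl was between 297 and 471 CPM (median 384) in T cells with 2 counts in the 5 B cell libraries together, and Igfbp4, a binding protein of insulin-like growth factors, was between 482 and 1029 CPM (median 667) in T cells against 0.0461 CPM. Vipr1, a receptor for vasoactive intestinal peptide, was at 182 ± 32.4 CPM in T cells and 0.0796 CPM in B cells. For such genes the size of the log2 fold change rests on a few counts. Of 181 called genes named, 46 had a fold (not a log2 value) that moved by more than 1.5 times when 1 library was left out. Among them 42 had a mean under 5 CPM in the lower lineage, and 0 of the 46 lost the call.

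The lineage difference recurred in S1PR4-/- samples. There 5389 of 13873 genes (38.8%) were called, 18.6% higher in B cells and 20.3% higher in T cells, and 4397 genes were called in the same direction in both genotypes, 82.8% of the WT calls and 81.6% of the S1PR4-/- calls, with 0 in opposite directions. Syk and Zap70 had log2 fold changes of 9.84 and -7.02, and Ciita 10.85. B cell markers summed to 11.9 to 23.1 CPM of raw totals in the S1PR4-/- non-TFH libraries and 15.1 to 53.6 in WT. In the 4 S1PR4-/- non-GC B libraries Siglech was at 0, 15.3, 17.1 and 26.5 CPM of raw totals. Cd4 was at 0.0656, 1.25, 2.44 and 5.98 CPM in the same libraries. The part of such RNA in the recurrence was not tested. The test of the difference between genotypes called 19 of 14815 genes at an adjusted p under 0.05 (0.128%, edgeR) and 1691 at an unadjusted p under 0.05. S1pr4, the deleted gene, was among them. The count was 0 without S1PR4-/- non-TFH library 3 and 37 without WT non-TFH library 1, and 210 with DESeq2.

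Inside the GC the lineages were parted by many of the same genes, to a different extent. GC B and TFH cells differed in 6077 of 13719 genes (44.3%), with 20.1% higher in GC B cells and 24.2% higher in TFH cells. Of the genes called outside the GC 3209 were called in the same direction inside it, 60.4% of the calls outside and 52.8% of those inside, and 250 were called in opposite directions. The test of the difference between the lineage effects called 6291 of 15101 genes (41.7%, edgeR). All 15 B cell receptor genes, all 14 MHC class II genes and the 20 T cell receptor signaling genes called higher in T cells outside were called the same way inside. WT TFH libraries held 146 to 479 CPM of B cell markers, 3.35% of the GC B level, where non-TFH libraries held 0.201%. Cd79a and Ciita had log2 fold changes of 5.99 and 5.42 there, and the part of the B cell RNA in these values was not tested.

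The cell cycle difference did not carry over. Of the 16 cell cycle genes higher in non-TFH cells, 0 were called the same way inside, and Mki67 was higher in GC B cells (log2 0.67, difference of the lineage effects 3.87, adjusted p = 3.65e-05, edgeR). Of the 8 called S1P metabolism genes 3 were called the same way inside. Nfatc1, Egr3, Aldoc, Cd274 and Tgfb3 were higher in B cells outside the GC and higher in T cells inside it. Tgfb3 went from log2 3.15 to -3.16 and Egr3 from 2.13 to -0.75. Cxcr5 did so as well, from 5.04 to -1.78, with CXCR5 used in the T cell gates.

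**Figure D5:**
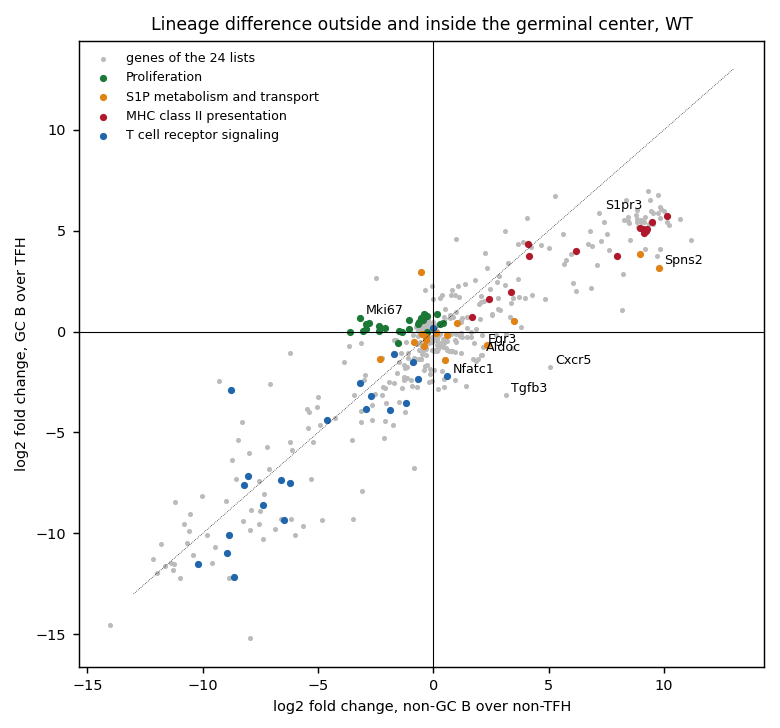
Log2 fold change of list genes between lineages outside the GC (x axis, non-GC B over non-TFH) and inside it (y axis, GC B over TFH), WT, with 4 lists in color and the line of equal values dotted. The MHC class II genes lie at the upper right, T cell receptor signaling genes mostly at the lower left, and cell cycle genes spread to the left along the line of no difference inside the GC.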

How the data were processed

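The authors sorted cells from dLN, captured poly(A) RNA and made stranded libraries. Per the submitters' processing notes and methods, reads were trimmed with Cutadapt 2.10, aligned to mm10 with STAR 2.5.3, marked for duplicates with Picard and quantified with RSEM 1.3.0. The authors deposited expected counts of 55450 genes without any scaling. The methods name GENCODE M30, but the table has the gene count of M21, which was used for positions. Samples were grouped by the labels, with sort days and gates from the methods.

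Expected counts were rounded, filtered with filterByExpr, normalized by TMM and tested with edgeR 4.0.16 (R 4.3.3). Shares of counts were compared by exact permutation. DESeq2 1.42.0, which the authors used, limma 3.58.1 (voom), other scalings, no filter, all groups in one fit, a fold over 2, a replicate block and leaving out each library were alternatives. Standard errors were derived from edgeR's F statistic. In data simulated for this comparison (13419 genes, 200 of them changed), 66.7% of genes changed 2-fold and 92.7% of those changed 4-fold were recovered, and 3.73% of the calls were on unchanged genes. The simulation changed a far smaller part of the genes than the 38.9% called here, and by no more than 4-fold. Its shares therefore need not hold for the comparison itself. The depth of 27924916 to 39258003 counts puts a floor of 3 counts per library near 0.1 CPM, and the intervals and floors cover counting error only.

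The comparison, the 24 gene lists, the 14 marker lists and the 28 pairs were chosen with earlier results of these data known. Genes named in the text are up to 3 per list and direction with the largest called change at 10 CPM or more, the member not called with the highest CPM, the 15 largest changes per direction at 50 CPM or more without overlap, the pairs, and the sort genes and S1pr4. A further 49 list members were named as examples after their values were seen, and results of some genes named by the rule are not reported here. Reads of near-identical copies (H2-DMb1 and H2-DMb2, Trbc1 and Trbc2, Iglc genes, Bcl2a1 genes) can be split by the counting and their values are uncertain. Promoter windows came from RefSeq (GRCm38.p6), with 362 of 480 list genes matched.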

Additional observations from a re-analysis of the deposited data

Results flagged for a closer look

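Of 284 sets of values (each named gene with a group mean of at least 1 CPM and each share of counts, per group), 11 had 1 sample far from the others by Dixon's ratio, where chance flags about 1 in 20. In non-GC B cells 1 library stood apart for Iglc3 at 470.1 CPM (others 452 to 456), for Mx2 at 36.9 CPM (others 6.87 to 15.2), for the share of immunoglobulin genes at 2.0% (others 1.58% to 1.64%) and for immunoglobulin constant genes at 1.81% (others 1.44% to 1.48%). The library high in immunoglobulin was library 3, and the one high in Mx2 was library 4. In non-TFH cells 1 library stood apart for Bbc3 at 36.1 CPM (others 13.7 to 21.4), Bid at 46.8 (others 33.5 to 38.5), Ephb6 at 111.6 (others 96.8 to 101.6), Foxp3 at 72.9 (others 135 to 166), Ldha at 1226 (others 1387 to 1420), Mx1 at 3.54 (others 1.34 to 2.14) and Rgs1 at 14.8 CPM (others 32.6 to 38.2). Library 4 was the one low in Foxp3 and Rgs1.

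The B to T difference itself changed between settings for 6291 genes when GC and non-GC cells were compared, among them 121 of 170 named genes, and for 19 genes when genotypes were compared. Named genes whose called direction turned had a log2 lineage difference, GC minus non-GC, of -3.16 for Aldoc, -1.57 for Cd274, -6.76 for Cxcr5, -2.84 for Egr3, 3.87 for Mki67, -2.75 for Nfatc1 and -6.25 for Tgfb3. Between genotypes the lineage difference, S1PR4-/- minus WT, was 0.55 for Cers5 and -1.90 for S1pr4.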

How the results depend on the processing

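The counts of called genes between non-GC B and non-TFH cells stayed within 1.5 times the reported ones under each alternative, in both genotypes. In WT they ran from 3869 (fold over 2) to 6626 (no filter), and leaving out 1 library gave 5047 to 5403, with 2577 to 2694 higher in B cells and 2470 to 2724 higher in T cells. In S1PR4-/- cells leaving out 1 library gave 5183 to 5632, with 2521 to 2679 and 2653 to 2953. Scaling by total counts moved the median of all genes by -0.14 on the log2 scale and gave 2303 genes higher in B cells and 3118 higher in T cells. The count of genes whose lineage difference depended on genotype, 19, was 210 with DESeq2, 4 with the replicate block and 0 (without non-TFH S1PR4-/- replicate 3) to 37 (without non-TFH WT replicate 1) with 1 library left out, so it rests on single libraries. The count for GC against non-GC ran from 5961 to 6425 with 1 library left out. The share differences ran from 1.48 to 1.59 points for immunoglobulin genes and from -0.414 to -0.391 for T cell receptor genes with 1 library left out.

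Equal replicate numbers did not pair the samples: the correlation of same-numbered deviations from the group means ran from -0.0602 to 0.0626, and 0 of 5 non-GC B samples matched best with their own number. With the replicate block 4902 WT genes were called, 4788 of them among the reported calls. Within-number differences in the shares were 1.56 and -0.391 points, where 5 pairs allow no exact sign-flip p below 0.0625.

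The named genes that changed sign were not called in the reported fit: with total counts Cers2 (-0.032), Il21r (-0.066), Cd48 (-0.027), Rgs19 (-0.064) and Tgfbr2 (-0.026), with the block Irf1 (0.013), without non-GC B libraries 4 and 5, chosen after seeing the data, Tnfsf9 (-0.16), and without non-TFH libraries 4, 5 and 6, also chosen after seeing the data, Vav1 (0.019). With 1 library left out the range spanned 0 for Il21r (-0.011 to 0.155), Irf1 (-0.090 to 0.0089), Ly9 (-0.111 to 0.0013), Runx3 (-0.104 to 0.0058) and Vav1 (-0.055 to 0.017). Ccl22, Cd274, Nfatc1, Rplp1 and Sgpl1 were called in the reported fit and not under at least 1 alternative beyond the fold over 2, Rplp1 only without non-GC B library 4. In the other direction, Cd80, Eno1, Junb, Il17ra, Pcna and Rgs14 were not called in the reported fit and were called under at least 1 alternative. For Il17ra, Pcna and Rgs14 this was scaling by total counts, which also gave 9 glycolysis genes higher in T cells instead of 5. Cytokines higher in T cells went from 4 to 8 without the filter and 10 with all groups in one fit. The causes were not tested. Genes near 1 count per library are limited by depth.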

Other observations

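Sex-linked transcripts were counted in every library. Ddx3y, on chromosome Y, had 3393 and 3301 counts in non-GC B libraries 2 and 4 and 3319 in non-TFH library 3, and 0 to 10 in the other 8. Xist had 1083, 1, 1433, 0 and 1134 counts in non-GC B libraries 1 to 5 and 405, 619, 0, 381, 480 and 249 in non-TFH libraries 1 to 6. The non-GC B libraries without Ddx3y counts over 10 thus held more Xist than any non-TFH library, a comparison chosen after the values were seen and not tested.

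Of 91 B cell list genes called higher in B cells, 47 stood in T cells under 1% of their B cell level, 17 from 1% to 10% and 27 over 10%. Of 47 T cell list genes called higher in T cells, 29 stood in B cells under 1% of their T cell level, 6 from 1% to 10% and 12 over 10%. Neutrophil markers were at 0.0339 to 6.69 CPM summed over 8 genes in the B cell libraries and 0.0294 to 0.709 CPM in the T cell libraries, and 0 of the 8 passed the count filter. Regulatory T cell markers were all higher in T cells (6 of 6). Other marker lists gave 2 of 5 CD8 T cell markers and 1 of 4 NK cell markers higher in T cells, 4 of 5 gamma delta T cell markers higher in T cells with Blk, also a B cell gene, higher in B cells, 6 of 7 plasma cell and 4 of 5 dendritic cell markers higher in B cells, 3 of 6 myeloid markers higher in B cells and 1 in T cells, 3 of 4 GC B cell markers and 5 of 7 TFH markers higher in T cells with 1 and 2 higher in B cells, 1 of 4 erythroid markers higher in B cells, and 0 of 1 tested stromal marker called.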
